A study of Mus musculus with 14 samples.

Results

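The Tdpoz and Tcstv genes are mouse gene families whose transcripts mark the two-cell embryo, and their RNA was measured here in 14 single two-cell embryos made by somatic cell nuclear transfer (SCNT). All entries whose RefSeq transcript belongs to a Tdpoz or a Tcstv gene were taken, which gave 12 transcript-and-locus entries of 9 genes among 25650 entries and 20242 gene symbols. The 7 Tdpoz genes were Tdpoz1, Tdpoz2, Tdpoz3, Tdpoz4, Tdpoz7, Tdpoz8 and Tdpoz9, and the 2 Tcstv genes were Tcstv1 and Tcstv3. Of 7 genes named at the outset, 6 had an entry. Tdpoz5 had none of its own, and its coding sequence in the mm9 genome was identical to that of Tdpoz7.

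In SCNT, the nucleus of a somatic cell is placed in an enucleated oocyte. All 14 embryos were of the B6D2F1 strain, from oocytes of females aged 8-10 weeks and nuclei of cumulus cells, the somatic cells that surround the oocyte. The 3 control embryos received no small molecule. The others received trichostatin A (TSA), a histone deacetylase inhibitor, at 50 nM from 0 to 8 h after the start of egg activation, vitamin C (VC), an antioxidant and a cofactor of histone and DNA demethylating enzymes, at 10 µg/ml from 0 to 8 h or from 8 to 15 h, or both. There were 1 VC(0-8h), 2 VC(8-15h), 3 TSA(0-8h), 2 TSA(0-8h)+VC(0-8h) and 3 TSA(0-8h)+VC(8-15h) embryos. Every embryo was collected at 28 h after nuclear transfer by the labels (after activation by the methods) and gave 1 library from a part of its RNA.

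Tdpoz proteins carry a TRAF domain and a POZ domain, as does SPOP, an adaptor that brings proteins to the CUL3 ubiquitin ligase. Tcstv1 and Tcstv3 encode small proteins of the two-cell stage. Transcripts of both families appear with the activation of the embryonic genome, and they recur in the few cultured embryonic stem cells that enter a two-cell-like state.

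The Tdpoz genes are near copies of one another in a cluster on chromosome 3, which bears on how far their reads can be told apart. In the mm9 genome, 8 Tdpoz models of the GENCODE annotation, all matched by symbol or synonym, lay between 92877408 and 93876566. Tdpoz7, Tdpoz8 and Tdpoz9 stand there as Gm10697, Gm4858 and Gm9125, and the Tdpoz2 model is classed as a pseudogene. The stretch of 50 aligned bases below was chosen as the first without gaps in which the most sequences differ (7 of 8), and capitals mark the bases that differ from the most common base at that position among the 8 genes (where bases tie, from the one that comes first in the alphabet).
Tdpoz1: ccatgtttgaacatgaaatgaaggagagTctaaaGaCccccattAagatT
Tdpoz9: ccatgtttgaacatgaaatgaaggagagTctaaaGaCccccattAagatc
Tdpoz3: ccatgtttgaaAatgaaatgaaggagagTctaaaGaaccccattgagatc
Tdpoz2: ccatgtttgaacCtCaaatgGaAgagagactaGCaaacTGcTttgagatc
Tdpoz5: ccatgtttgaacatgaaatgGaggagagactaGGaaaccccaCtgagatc
Tdpoz7: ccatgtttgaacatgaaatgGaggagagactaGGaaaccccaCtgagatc
Tdpoz4: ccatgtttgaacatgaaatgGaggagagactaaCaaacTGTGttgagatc
Tdpoz8: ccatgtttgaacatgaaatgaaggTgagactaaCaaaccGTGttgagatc

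These stretches lie at chr3:93474705-93474754 (Tdpoz1), chr3:93853349-93853398 (Tdpoz9), chr3:93455893-93455942 (Tdpoz2), chr3:93764544-93764593 (Tdpoz5) and chr3:93875874-93875923 (Tdpoz7) on the minus strand, and at chr3:93630585-93630634 (Tdpoz3), chr3:93600963-93601012 (Tdpoz4) and chr3:92878086-92878135 (Tdpoz8) on the plus strand, all in exons of the mm9 models. Those of Tdpoz1, Tdpoz2, Tdpoz4 and Tdpoz8 occur once in the genome, and those of the other 4 genes occur 2 times.

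Over the aligned model sequences, Tdpoz5 and Tdpoz7 were identical at all 1023 bases and Tdpoz1 and Tdpoz9 at 98.5% of 1086 bases, a difference of 16 bases. Tdpoz4 and Tdpoz8 were identical at 94.0% of 735 bases, and the other pairs at 76.4% to 88.3%. Every window of 50 bases in the models of Tdpoz5, Tdpoz7 and Tdpoz9 occurred at least 2 times in the genome. The share of windows that occurred once was 80.8% for Tdpoz8, 58.8% for Tdpoz4, 49.5% for Tdpoz2, 42.1% for Tdpoz1 and 33.8% for Tdpoz3. Tdpoz1 and Tdpoz9 shared 56.8% and 56.6% of their windows with each other, and shares between the other non-identical pairs were at most 3.85%. How the authors' counting treated a read that maps to several places is not given in the sources used here. Reads were counted on Tdpoz7, whose transcript and model both have 1023 bases, although none of its windows occurred once. Such reads were thus not all dropped. The windows cover the models only. The counted transcripts of Tdpoz1 and Tdpoz9 were longer, at 2302 and 2325 bases against 1235 and 1239 in the models, and the rest was not scanned.

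**Figure D1:**
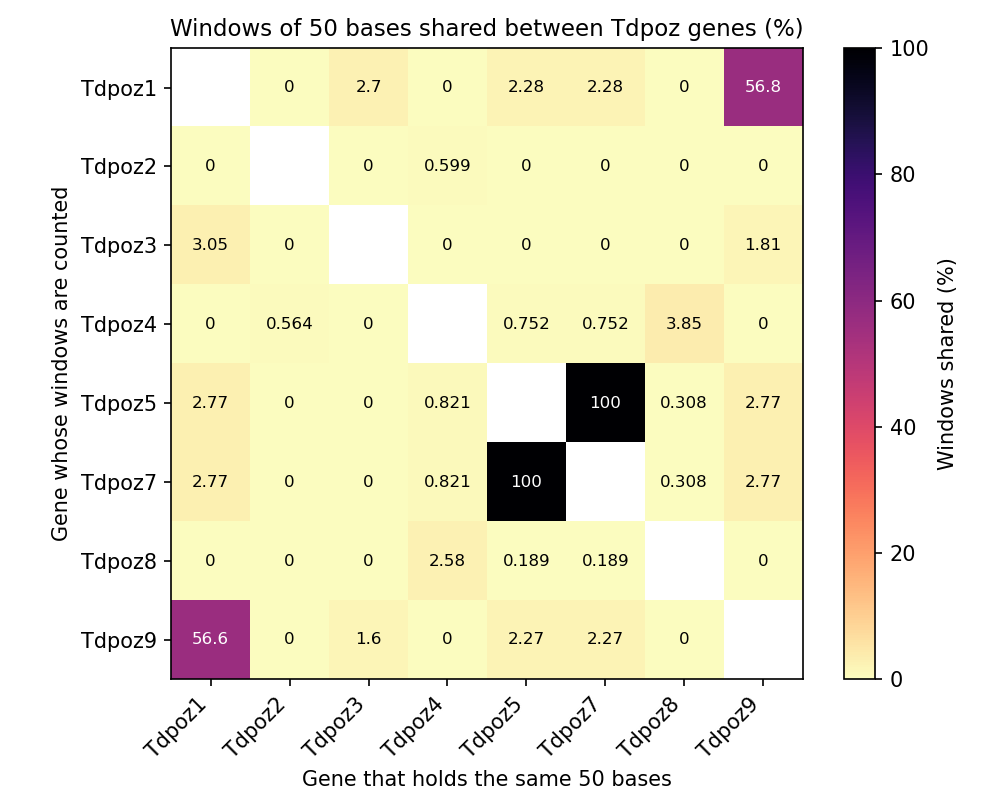
Share of 50-base windows of each Tdpoz model in mm9 (rows) that occur without a mismatch in another Tdpoz model (columns), in percent. Tdpoz5 and Tdpoz7 share 100% of their windows and Tdpoz1 and Tdpoz9 share 56.8% and 56.6%, while the other pairs share at most 3.85%.

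The 2 loci listed for Tdpoz7 received close to equal reads. In the 9 embryos with 100 reads or more over both, the first locus held 46.6% to 52.8% of them, for example 2611 and 2727 reads in TSA(0-8h)+VC(8-15h) replicate 2, and an even split lay inside the exact 95% binomial interval in all 14 embryos. The 2 loci listed for Tdpoz9 were split at 47.9% to 54.0% in 11 such embryos, and an even split lay inside the interval in 11 of 14. The locus a read came from can therefore not be told for Tdpoz7, nor for Tdpoz9 within the part covered by its model. Below, the loci of each of these genes were summed for levels, overlaps and permutation tests. The limma fits kept each locus as an entry.

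The 2 entries of Tdpoz8 are transcripts that share exons, and the same reads could be counted on both. Their reads were equal in 3 embryos, among them TSA(0-8h)+VC(8-15h) replicate 1 with 3216 each. In TSA(0-8h) replicate 2 the shorter transcript (NM_001034860) had 135 reads and the longer (NM_001177694) 1126. The longer transcript stands for Tdpoz8 below, except in the limma fits, which kept both entries.

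Between 3021540 and 13589389 reads were counted per embryo, and values are given as RPKM, reads divided by transcript length in kilobases and by the reads counted in the embryo, so that levels can be compared between genes. On a transcript of 1 kb, the floor of 3 reads was worth 0.221 RPKM in control replicate 3, which had the most reads, and 0.993 RPKM in TSA(0-8h) replicate 1, which had the fewest. Bmp15, an oocyte-secreted factor, was at 91.3 RPKM or more in all 14 embryos, and each of the 10 oocyte and early embryo markers was seen at 1 RPKM in at least 2. Of 12 cumulus cell markers, 3 were at 0 in all embryos and 11 did not exceed 1.82 RPKM in any, while Amhr2, an AMH receptor gene, reached 144 RPKM in TSA(0-8h) replicate 3. The summed cumulus markers were at 0.111 to 18.4 RPKM in control embryos and 2.13 to 63.6 RPKM with TSA(0-8h)+VC(8-15h), and their part in the results was not tested.

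Summed over the 7 genes, Tdpoz RNA was low in control SCNT embryos and higher in every treated embryo, whichever treatment it had received. The sum was 36.2, 9.39 and 82.4 RPKM in control replicates 1 to 3. The TSA(0-8h) embryos were at 449, 297 and 509 RPKM and those with TSA(0-8h)+VC(8-15h) at 817, 1311 and 972 RPKM. The VC(0-8h) embryo was at 668 RPKM, the VC(8-15h) embryos at 536 and 1051 RPKM, and the TSA(0-8h)+VC(0-8h) embryos at 1270.2 and 524 RPKM. All 11 treated embryos thus lay above all 3 control embryos, and the lowest treated embryo was at 3.61 times the highest control. The sum was formed with earlier results of these data known, so this order is a description with no test.

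Among the 7600 genes at 1 RPKM in any 3 of the 14 embryos, 30 (0.395%) had all treated embryos above all controls. This is a share of single genes, and none was computed for sums of 7 genes. Alone, none of the 9 Tdpoz and Tcstv genes had all treated embryos above all controls. The separation of the Tdpoz sum therefore did not lie in 1 member. It held without any 1 of the 7 genes, with a ratio of the lowest treated to the highest control embryo between 1.11 (without Tdpoz2) and 5.49 (without Tdpoz4), in RPM, which is scaled to the reads counted and not to length (3.04), and after median-ratio scaling over 848 entries (3.90). Without Tdpoz2 the margin nearly closed, since TSA(0-8h) replicate 2 fell to 89.2 RPKM against 80.3 RPKM in control replicate 3.

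By the mean of log2(RPKM+1) of the sum, the groups followed each other from control (4.99) through TSA(0-8h) (8.68), VC(0-8h) (9.39), VC(8-15h) (9.55) and TSA(0-8h)+VC(0-8h) (9.67) to TSA(0-8h)+VC(8-15h) (9.99). The ranges of control and TSA(0-8h) did not overlap, nor did those of TSA(0-8h) and the single VC(0-8h) embryo, and each later pair of neighbours overlapped. The Tdpoz genes took 13.5 to 132 RPM in control embryos and 402 to 1856 RPM in treated ones. The sum did not follow depth or the number of entries detected at 1 RPKM (Spearman's rho of -0.18 and 0.27 over the 14 embryos, a description). VC(8-15h) replicate 2, with 3322 entries the poorest library in detected entries, had a sum of 1051 RPKM. Within each sequencing lane, TSA(0-8h)+VC(8-15h) exceeded control by 4.46, 6.98 and 3.54, and TSA(0-8h) exceeded control by 3.60, 4.84 and 2.61, on the log2 scale in lanes 3, 4 and 5. In a whole embryo, fewer cells with the RNA and less of it per cell cannot be told apart.

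**Figure D2:**
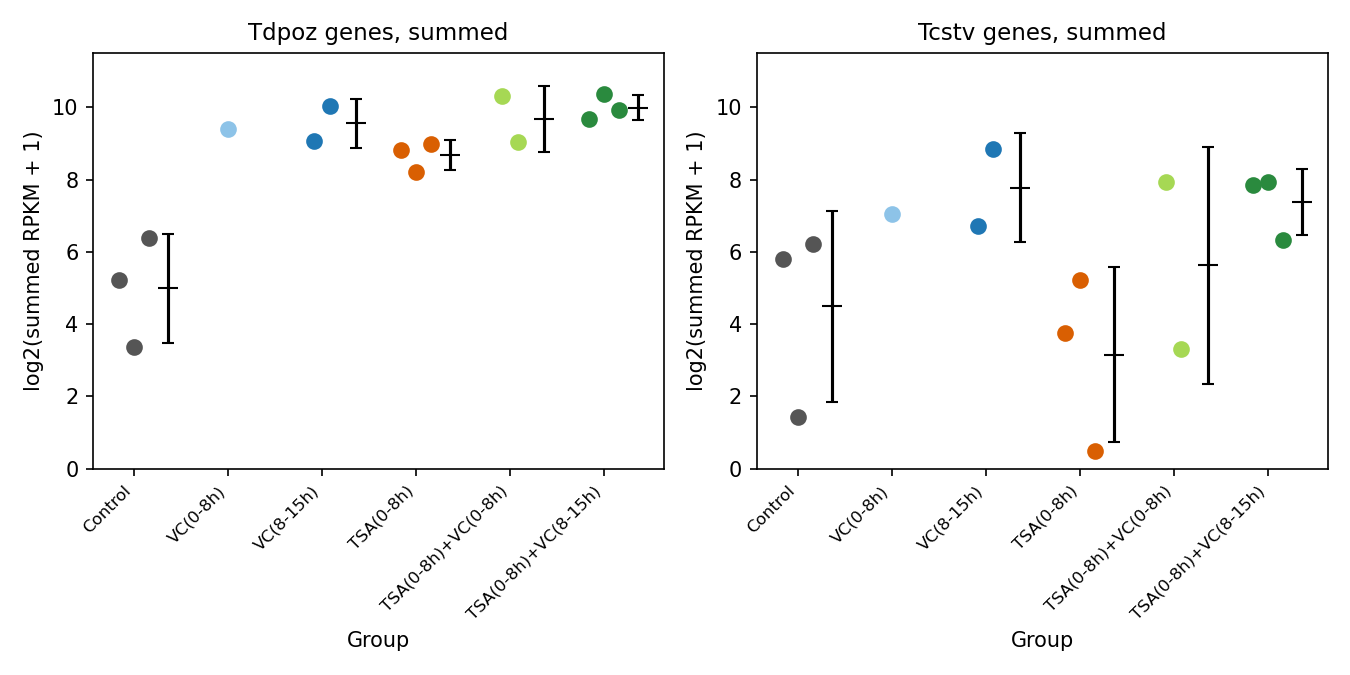
Summed RPKM of the 7 Tdpoz genes (left) and the 2 Tcstv genes (right) on a log2(RPKM+1) axis, 1 point per embryo by group, with the mean and SD beside groups of 2 or more. The Tdpoz sum of all 11 treated embryos, from 297 RPKM, lies above the 3 control embryos, up to 82.4 RPKM, while the Tcstv sum overlaps between control and treated embryos.

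The Tcstv sum did not part treated from control embryos. It was 55.0, 1.71 and 73.2 RPKM in control embryos, and 7 of the 11 treated embryos exceeded the highest control. TSA(0-8h) embryos, at 12.5, 36.3 and 0.403 RPKM, were within or below the control range, whereas TSA(0-8h)+VC(8-15h) embryos, at 231, 245 and 79.4 RPKM, were all above it. The VC(0-8h) embryo was at 131 RPKM, VC(8-15h) embryos were at 103 and 458 RPKM, and TSA(0-8h)+VC(0-8h) embryos at 245 and 8.95 RPKM. In the order of mean log2 values, from TSA(0-8h) (3.16) and control (4.49) to TSA(0-8h)+VC(8-15h) (7.38) and VC(8-15h) (7.77), each pair of neighbours overlapped.

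Which Tdpoz gene was highest differed from embryo to embryo, also within a group. With the loci of Tdpoz7 and of Tdpoz9 summed, Tdpoz7 led in 7 embryos, Tdpoz8 in 3, Tdpoz9 in 2, and Tdpoz2 and Tdpoz3 in 1 each. Among TSA(0-8h) embryos, Tdpoz9 held 43.9% and 50.4% of the sum in replicates 1 and 3, and Tdpoz2 held 70.0% in replicate 2. Control replicate 1 drew 88.3% of its sum from Tdpoz8. The number of the 7 genes at 1 RPKM or more was 2, 4 and 5 in control embryos and 4 to 7 in treated ones, and only TSA(0-8h)+VC(0-8h) replicate 2 had all 7.

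**Figure D3:**
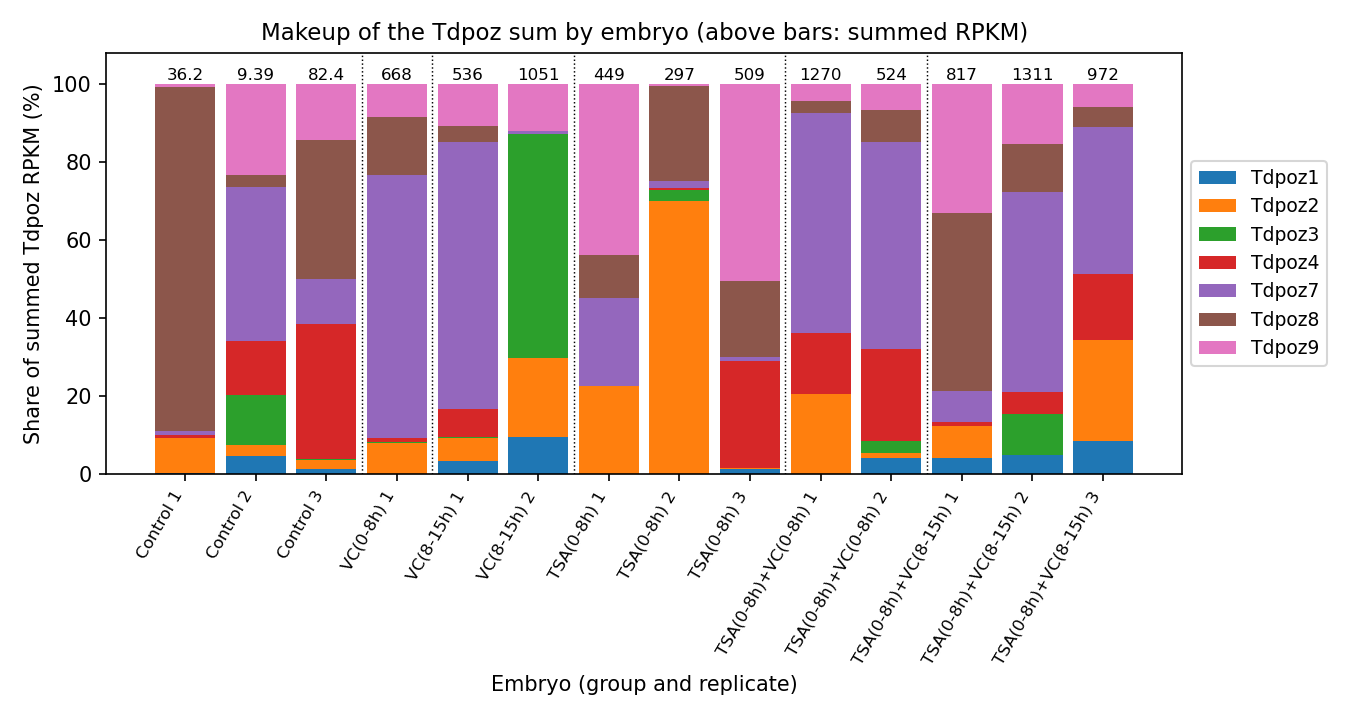
Share of the summed Tdpoz RPKM taken by each of the 7 genes (stacked bars, percent) in each of the 14 embryos, with the summed RPKM above each bar. The leading gene changes between embryos of 1 group, from Tdpoz9 to Tdpoz2 among TSA(0-8h) embryos, and Tdpoz7 leads in 7 embryos.

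Among the single genes, Tdpoz1 (NM_148949) set TSA(0-8h)+VC(8-15h) embryos apart from both TSA(0-8h) and control. It was at 0.0801, 0.443 and 0.991 RPKM in control embryos, on 1, 7 and 31 reads. TSA(0-8h) embryos were at 0.144, 0.111 and 7.02 RPKM, and TSA(0-8h)+VC(8-15h) embryos at 32.7, 62.8 and 81.7 RPKM. The 3 embryos with TSA and late VC were thus above all others of these groups. Of the remaining embryos, VC(8-15h) replicates 1 and 2, at 17.8 and 99.3 RPKM, and TSA(0-8h)+VC(0-8h) replicate 2, at 20.9 RPKM, also had high values, and the VC(0-8h) embryo (0.612 RPKM) and TSA(0-8h)+VC(0-8h) replicate 1 (0.799 RPKM) did not. All 5 embryos treated with late VC were at 17.8 RPKM or more, and all embryos without VC were at 7.02 RPKM or less.

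Tdpoz9 (NM_001163730), the closest relative of Tdpoz1, was higher than in the highest control embryo in 10 of 11 treated embryos. Control embryos were at 0.238, 2.19 and 11.9 RPKM and TSA(0-8h)+VC(8-15h) embryos at 269.6, 199.8 and 56.7 RPKM, with no overlap. TSA(0-8h) replicates 1 and 3, at 197 and 257 RPKM, were high and replicate 2, at 1.27 RPKM, was not. Embryos of the other 3 groups ranged from 34.5 to 127 RPKM. Tdpoz9 and Tdpoz1, which share windows, had 1385 reads against 1 in TSA(0-8h) replicate 1 and 7012 against 190 in replicate 3. How many Tdpoz1 reads came from Tdpoz9 was not tested.

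Tdpoz7 (NM_001163731), whose reads cannot be told from those of Tdpoz5, had the highest Tdpoz values with its 2 loci summed. The highest value of 1 locus was 361 RPKM, below Tdpoz3 at 605 RPKM in VC(8-15h) replicate 2. Control embryos were at 0.360, 3.70 and 9.57 RPKM, and TSA(0-8h)+VC(8-15h) embryos at 65.3, 671 and 366 RPKM. It was at 101, 5.38 and 5.24 RPKM in TSA(0-8h) embryos, where replicates 2 and 3 lay inside the control range. The VC(0-8h) embryo was at 451 RPKM, VC(8-15h) embryos at 366 and 6.10 RPKM and TSA(0-8h)+VC(0-8h) embryos at 717 and 278 RPKM. Of the 8 embryos with any VC, 7 were at 65.3 RPKM or more and VC(8-15h) replicate 2 was not, and of the 6 without VC, TSA(0-8h) replicate 1 alone was above 9.57 RPKM.

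Tdpoz8 was the Tdpoz gene with the highest level in control replicates 1 and 3, and control embryos were at 32.0, 0.294 and 29.3 RPKM. It was above the control range in TSA(0-8h) embryos (49.5, 72.6 and 99.5 RPKM) and with TSA(0-8h)+VC(8-15h) (373, 164 and 49.2 RPKM). TSA(0-8h)+VC(0-8h) embryos were at 39.2 and 43.4 RPKM. By this longer transcript, all 8 embryos treated with TSA were thus above all 3 controls, and the share of all entries so separated was not computed. Without TSA, the VC(0-8h) embryo was at 99.5 RPKM and the VC(8-15h) embryos were at 22.6 and 0.460 RPKM, within the control range. Its shorter transcript overlapped between control and each group with TSA. It was at 35.0, 0.161 and 32.0 RPKM in control embryos and 409, 153 and 13.1 RPKM in TSA(0-8h)+VC(8-15h) embryos. TSA(0-8h) embryos were at 54.3, 9.55 and 45.2 RPKM and TSA(0-8h)+VC(0-8h) embryos at 14.4 and 36.9 RPKM.

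Tdpoz2, Tdpoz3 and Tdpoz4 were high in some embryos of most groups and near 0 in others. Tdpoz2 (NM_001007222) was at 3.22, 0.254 and 2.06 RPKM in control embryos, 101, 208 and 1.04 RPKM in TSA(0-8h) embryos and 67.0, 0.562 and 252 RPKM in TSA(0-8h)+VC(8-15h) embryos. The remaining 5 embryos were at 7.93 to 260.5 RPKM, so that 9 of 11 treated embryos exceeded the highest control. Tdpoz3 (NM_207271) was listed at 0 in 5 of the 14 embryos, at up to 1.19 RPKM in controls, and at 605 RPKM on 4367 reads in VC(8-15h) replicate 2, the highest of its values. The next were 139 RPKM in TSA(0-8h)+VC(8-15h) replicate 2, 15.5 RPKM in TSA(0-8h)+VC(0-8h) replicate 2 and 8.74 RPKM in TSA(0-8h) replicate 2. These 4 embryos and control replicate 2, the highest control, were all sequenced in lane 4, and the VC(0-8h) embryo of that lane was at 0.855 RPKM. Every embryo of lanes 3 and 5 was at 0.277 RPKM or less, so for Tdpoz3 the lane went with the level.

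Tdpoz4 (NM_207272) was at 0.331, 1.31 and 28.4 RPKM in control embryos and 9.10, 73.9 and 166 RPKM in TSA(0-8h)+VC(8-15h) embryos. TSA(0-8h) embryos were at 0, 1.15 and 139.5 RPKM. TSA(0-8h)+VC(0-8h) embryos, at 198 and 124 RPKM, had the highest mean, and the VC-treated embryos without TSA were at 7.59, 39.5 and 0.547 RPKM. Each group of 3 overlapped with the controls.

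The Tcstv genes differed from each other. Tcstv3 (NM_153523) was near 0 in all controls, at 0.210, 0.332 and 0.168 RPKM on 1, 2 and 2 reads, below the floor of 3 reads. It was at 2.36, 42.6 and 52.3 RPKM in TSA(0-8h)+VC(8-15h) embryos and at 10.2, 17.2 and 0 RPKM in TSA(0-8h) embryos. VC(0-8h) and VC(8-15h) embryos, at 123, 101 and 239.8 RPKM, were among the highest, beside TSA(0-8h)+VC(0-8h) replicate 1 at 176 RPKM, while replicate 2 of that group was at 0.174 RPKM. All 3 embryos given VC without TSA were thus at 101 RPKM or more.

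Tcstv1 (NM_018756), in contrast, was present in control embryos, at 54.8, 1.38 and 73.1 RPKM. It was at 2.35, 19.1 and 0.403 RPKM in TSA(0-8h) embryos and 229, 202 and 27.1 RPKM in TSA(0-8h)+VC(8-15h) embryos, which did not overlap with each other, though both overlapped with control. VC(8-15h) replicate 2, at 218 RPKM, and TSA(0-8h)+VC(0-8h) replicate 1, at 69.7 RPKM, were higher than their group mates at 2.28 and 8.77 RPKM, and the VC(0-8h) embryo was at 7.51 RPKM. Only 3 of 11 treated embryos exceeded the highest control.

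**Figure D4:**
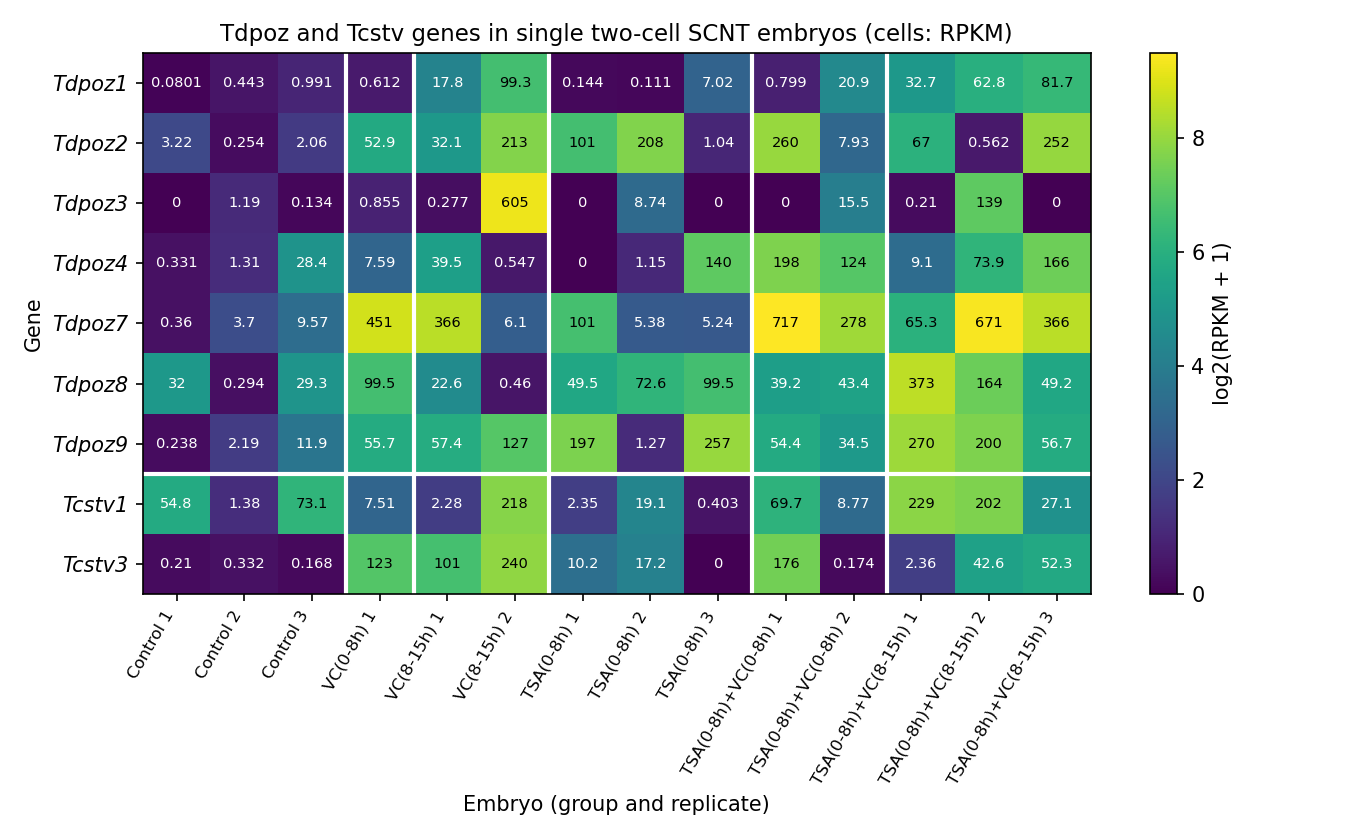
RPKM of the 9 genes (rows; numbers in the cells) in the 14 embryos (columns, by group and replicate), with log2(RPKM+1) as color. Control columns are dark for most Tdpoz genes and Tcstv3, and each treated column has some bright Tdpoz cells, in rows that differ between embryos.

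TSA(0-8h)+VC(8-15h) was the treatment followed furthest in the study, and its 3 embryos were compared with the 3 controls in a limma fit over all entries at 1 RPKM or more in all 3 embryos of either group. No member entry passed an adjusted p of 0.05 (limma with Benjamini-Hochberg adjustment), where 1 of 3416 entries did (0.0293%). At an unadjusted p under 0.05, 7 of the 10 member entries tested were higher in treated embryos, against 18.4% of all entries tested in either direction. These 7 entries include both loci of Tdpoz7 and of Tdpoz9, which split shared reads, so they are fewer than 7 separate genes. Of these 10 entries, 9 passed the minimum only through the treated group, which favours higher values there. Tdpoz2 and Tdpoz3 were not tested. With a minimum blind to the groups, added after the values were seen, 7 of 11 member entries and 8.73% of 5304 entries had an unadjusted p under 0.05, and again no member was called.

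The 10 tested entries were all higher in treated embryos, by 2.35 to 5.65 on the log2(RPKM+1) scale. Tdpoz7 was higher by 5.65 (standard error 1.64, adjusted p = 0.110) and 5.49 (standard error 1.64, adjusted p = 0.110) at its 2 loci, and Tdpoz1 by 5.27 (standard error 1.54, adjusted p = 0.110). Tdpoz9 was higher by 5.01 and 4.72 (adjusted p = 0.119 and 0.134), Tcstv3 by 4.01 (adjusted p = 0.111) and the longer Tdpoz8 transcript by 3.74 (adjusted p = 0.164), all in limma. The remaining member entries were at 3.48 for Tdpoz4, 3.11 for the shorter Tdpoz8 transcript and 2.35 for Tcstv1, with adjusted p-values between 0.326 and 0.411. The median over the 10 entries was 4.36 and that over all entries tested was 0.78, an upward shift of the whole comparison. A minimum of 5 RPKM in place of 1, or limma-voom on the reads recovered from the values, called 4 member entries (Tdpoz1, both loci of Tdpoz7 and the first locus of Tdpoz9) of 9 and 10 tested. In both settings these 4 entries passed the minimum only through the treated group, which favours such calls. These settings also called more entries in all, 211 of 2482 (8.5%) and 323 of 4102 (7.87%) against 1 of 3416. Testing without a filter raised the adjusted p of these members to 0.716. Without control replicate 2, Tcstv1 was at 0.77, the shorter Tdpoz8 transcript at 1.48 and the longer at 2.21.

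Embryo by embryo, 5 of the 9 genes did not overlap between the groups, all higher in TSA(0-8h)+VC(8-15h) (Tdpoz1, Tdpoz7, Tdpoz8, Tdpoz9 and Tcstv3), against 10.5% of entries at 1 RPKM in any 3 of the 6 embryos. Each had p = 0.1 in a two-sided exact permutation test, the smallest that 3 embryos against 3 allow. Within the sequencing lanes, 7 of the 9 genes were higher than the control in all 3 lanes, and Tdpoz3 and Tcstv1 in 2 of 3.

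TSA(0-8h) alone was compared with control in the same way. No member entry was called in limma (0.119% of 2529 entries were) and 0 of the 6 tested had an unadjusted p under 0.05, against 15.2% of all tested. The differences ran from -2.23 for Tcstv1 (standard error 2.00, adjusted p = 0.682) to 3.80 for Tdpoz2 (standard error 2.00, adjusted p = 0.393). Of the 6 entries, 5 passed the minimum only through the TSA(0-8h) embryos, and Tcstv1 only through the controls, which favours these directions. Tdpoz8, by its longer transcript, was the single gene of the 9 with no overlap, higher in all 3 TSA(0-8h) embryos (p = 0.1 in the exact permutation test), and 3.97% of entries were so separated upward. Its shorter transcript overlapped, at 9.55 to 54.3 RPKM against 0.161 to 35.0 RPKM in controls (p = 0.5 in the exact permutation test). Tdpoz1, Tdpoz3, Tdpoz4, Tcstv3 and both loci of Tdpoz9 were not tested here, since neither group had 1 RPKM in all 3 embryos for these entries. With its loci summed, Tdpoz9 was at 1.27 RPKM or more in the 3 TSA(0-8h) embryos. This comparison and the one above share their 3 control embryos.

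Addition of late VC to TSA was examined by comparing TSA(0-8h)+VC(8-15h) with TSA(0-8h) embryos. No member entry was called in limma, nor was any of the 3243 entries tested (0%). At an unadjusted p under 0.05, 4 of 11 member entries were higher with late VC, against 18.6% of all entries in either direction. The 4 include both loci of Tdpoz7, which split shared reads, and 6 of the 11 passed the minimum only through the embryos with VC. Tdpoz1 was higher by 4.70 (standard error 1.68, adjusted p = 0.127), Tcstv1 by 4.59 (standard error 1.75, adjusted p = 0.153) and Tdpoz7 by 3.77 and 3.95 at its 2 loci (adjusted p = 0.208 and 0.203). The remaining 7 tested entries were between -0.23 (Tdpoz2) and 2.90 (Tdpoz4). Tdpoz1 and Tcstv1 were the genes without overlap, each with p = 0.1 in the exact permutation test, and 12.2% of entries were so separated upward. Tdpoz1 was the member called with a minimum of 5 RPKM and with limma-voom, where 241 of 2354 entries (10.2%) and 281 of 3836 (7.33%) were called in all. In both settings Tdpoz1 passed the minimum only through the embryos with VC, which favours such a call. For Tcstv1, the TSA(0-8h) embryos (0.403 to 19.1 RPKM) and those with late VC (27.1 to 229 RPKM) both overlapped with the controls (1.38 to 73.1 RPKM). The median over all entries tested was 1.18 and that over the member entries was 1.75.

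**Figure D5:**
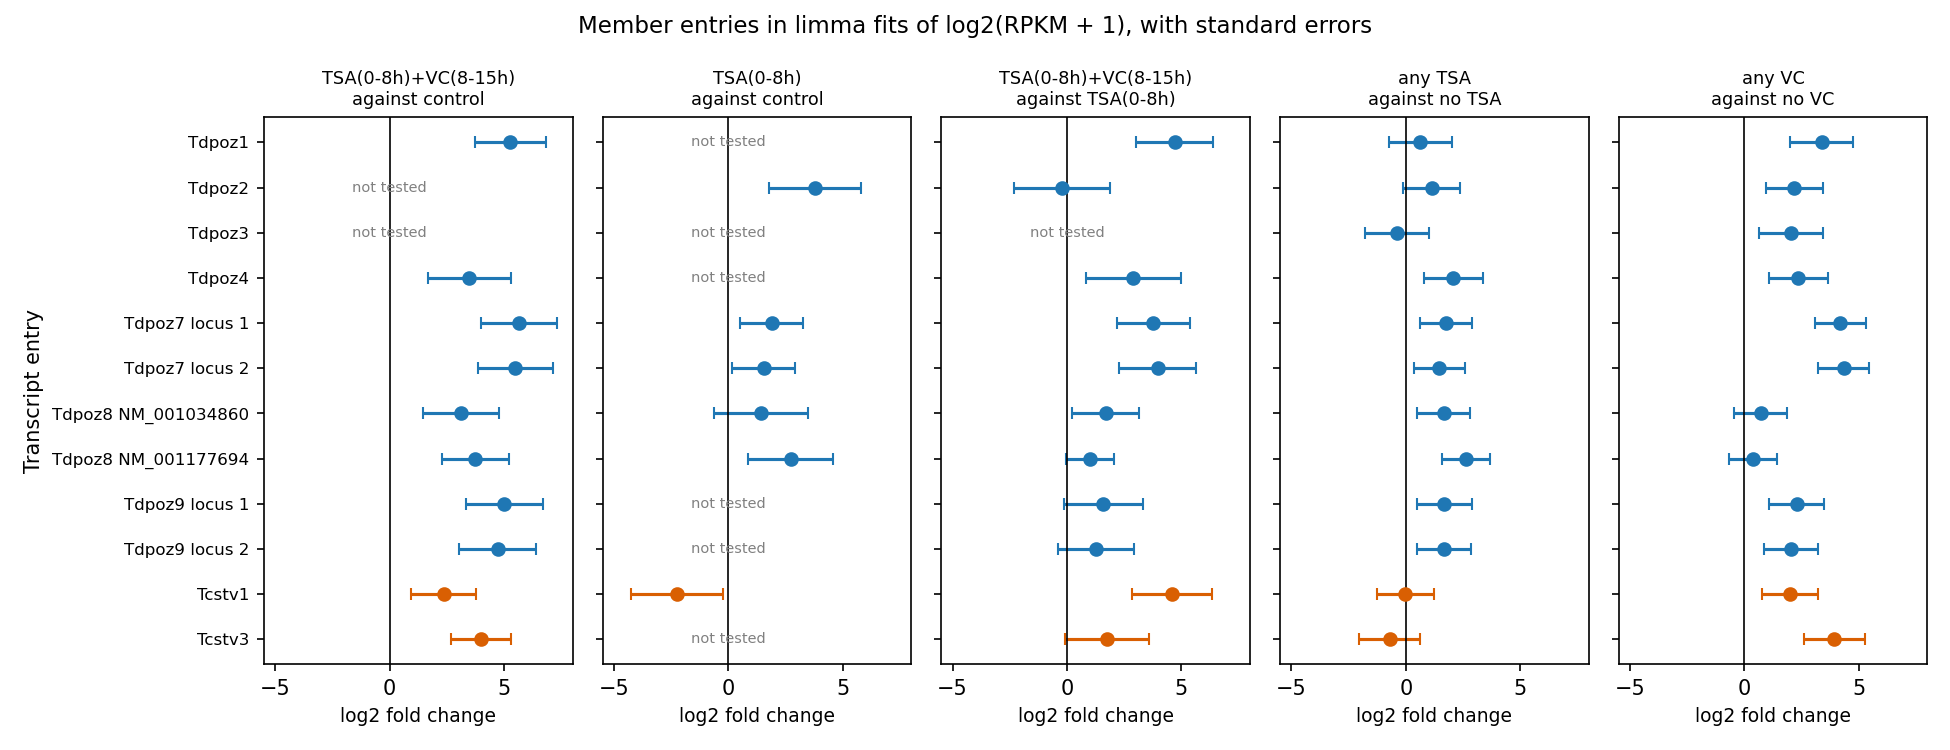
log2 fold changes on the log2(RPKM+1) scale (points) with limma standard errors (bars) of the 12 member entries in 5 comparisons, Tdpoz in blue and Tcstv in orange. In the first panel the 10 tested entries lie between 2.35 and 5.65, in the panel for any VC all 12 lie above 0, and entries below the minimum are marked as not tested.

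With all 14 embryos in 1 fit of TSA and VC, the 8 embryos given TSA were compared with the 6 without it, and the 8 given VC with the 6 without it, each adjusted for the other agent. For TSA, no member entry was called (0.0242% of 8249 entries were), and 1 of 12 had an unadjusted p under 0.05, against 4.78% of all entries. This was the longer Tdpoz8 transcript, higher by 2.63 with TSA (standard error 1.06, adjusted p = 0.958 in limma). The Tcstv genes were at -0.02 (Tcstv1, 0.40 with quantile normalization) and -0.70 (Tcstv3), with standard errors of 1.23 and 1.34.

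For VC, all 12 member entries were higher with VC, and none was called (0.0242% of 8249 entries were). Of the 12, 4 had an unadjusted p under 0.05, against 7.39% of all entries, and both loci of Tdpoz7 were among these 4. Tdpoz7 was higher by 4.19 and 4.33 at its 2 loci (standard errors 1.12, adjusted p = 0.169 and 0.117 in limma), Tcstv3 by 3.93 (standard error 1.34, adjusted p = 0.430) and Tdpoz1 by 3.38 (standard error 1.37, adjusted p = 0.621). The longer Tdpoz8 transcript was nearest to no difference, at 0.38 (standard error 1.06), and it was at -0.34 after median-ratio scaling. The median was 2.23 over the member entries and 0.52 over all entries. Whether the TSA difference depended on VC was tested by an interaction term, an analysis added after the data were seen, and no member was called. The smallest unadjusted p-values were 0.0466 for Tcstv3 (-5.31, standard error 2.61, adjusted p = 0.927 in limma) and 0.0569 for Tdpoz2.

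Other genes of the two-cell programme were followed with 3 lists. Of 29 two-cell genes such as the Zscan4 and Usp17l families, 25 had an entry and 10 entries were tested for TSA(0-8h)+VC(8-15h) against control. No Zscan4 entry passed the minimum, and Usp17lb was the only Usp17l gene tested. Zscan4c was at 0, 0 and 26.2 RPKM in controls and 5.56, 1.02 and 0.0716 RPKM with TSA(0-8h)+VC(8-15h). Zscan4d and Zscan4f were also highest in control replicate 3. None of the 10 entries was called in limma, and their median was 2.25, against 0.78 over all entries tested. AF067063, Gm8300, Zfp352, Usp17lb, Pramel6, Pramel7 and Tmem92 passed the minimum only through the treated group, which favours higher values and a higher median. The 2 entries with an unadjusted p under 0.05 (18.4% of all entries had one) were both of Sp110, a nuclear body gene, at 4.55 for NM_175397 and 2.36 for NM_030194 (adjusted p = 0.110 and 0.141). For TSA(0-8h) against control, Zfp352, a zinc finger gene of the two-cell stage, was at 4.29 (adjusted p = 0.228) on the log2 scale. Its levels were 135, 155 and 225 RPKM in TSA(0-8h) embryos and 0.326, 2.83 and 125 RPKM in controls. It passed the minimum only through the TSA(0-8h) embryos, which favours a higher value. With late VC added to TSA, the smallest p-values of the list were those of Sp110 NM_175397, higher by 7.22 (adjusted p = 0.0638 in limma), and Usp17lb, a deubiquitinase gene, higher by 4.63 (adjusted p = 0.105 in limma). Usp17lb passed the minimum only through the embryos with VC, which favours a higher value. The other Sp110 entry was at -0.02, and the median of the list was 0.55, against 1.18 over all entries tested. With VC against no VC, 26 entries were tested, 3 had an unadjusted p under 0.05, all higher, against 7.39% of all entries, and the median was 1.17, against 0.52 over all entries.

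For the ubiquitin ligase that SPOP-like proteins join, all 16 genes of the SPOP, CUL3 and BTB adaptor list had an entry. None was called in limma in any of the 5 comparisons, and for TSA(0-8h)+VC(8-15h) against control 2 of 5 entries had an unadjusted p under 0.05, both higher, against 18.4% of all entries tested. The median was 2.31, against 0.78 over all entries. Klhl12, Klhl21 and Btbd2 passed the minimum only through the treated group, which favours higher values and a higher median. Cul3, the scaffold of the ligase, was at 94.8, 3.95 and 54.6 RPKM in control embryos, 553, 257 and 294 RPKM in TSA(0-8h) embryos and 388, 269 and 504 RPKM in TSA(0-8h)+VC(8-15h) embryos. The differences from control were 3.55 and 3.66 (adjusted p = 0.145 and 0.110 in limma). Each treated group lay above the controls without overlap, as 3.97% and 10.5% of entries did, and the treated groups overlapped with each other. Spop itself was at 53.0, 167 and 82.5 RPKM in controls and 4.94, 1.95 and 1.00 RPKM in TSA(0-8h) embryos, a difference of -4.80 (adjusted p = 0.228 in limma). With TSA(0-8h)+VC(8-15h), Spop was at 3.28, 46.9 and 54.8 RPKM.

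Among 13 regulators of the two-cell programme, such as Dppa2 and Setdb1, 11 had an entry (Dux and Duxf3 did not), and none was called in limma in any comparison. For TSA(0-8h)+VC(8-15h) against control, 3 of 6 entries had an unadjusted p under 0.05, against 18.4% of all entries tested, all higher, namely Setdb1, a histone H3K9 methyltransferase gene (3.36, adjusted p = 0.272), Chaf1a, of a chromatin assembly factor (3.21, adjusted p = 0.190), and Dppa2 (2.46, adjusted p = 0.230). The median of the list was 1.78, against 0.78 over all entries tested. Setdb1 passed the minimum only through the treated group, which favours higher values. With TSA(0-8h) against control, Zmym2, which encodes a zinc finger corepressor protein, was at 4.60 (adjusted p = 0.133) and Dppa2 at 2.82 (adjusted p = 0.275). Zmym2 was at 0.215 RPKM or less in controls and passed the minimum only through the TSA(0-8h) embryos, which favours a higher value.

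The genes of both families varied largely apart from one another over the 14 embryos. Of the 36 pairs of the 9 genes, 30 had a positive Spearman's rho of log2(RPKM+1), with a median of 0.21 and a range from -0.18 to 0.66. The highest was between Tdpoz2 and Tcstv3 (0.66, and 0.73 after lane means were removed), genes of different families, followed by Tdpoz1 and Tdpoz9 (0.61), which share sequence. The sums of the 2 families had a rho of 0.79. These values, over 14 embryos that share groups, lanes and controls, are descriptions.

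The 5 genes whose pattern was most like the Tdpoz sum, among 5675 genes at 1 RPKM in at least 5 embryos, were Unc119b (rho of 0.86), Rwdd1 (0.85), Slc30a1 (0.83), Tmem68 (0.82) and Mfsd14a (0.82). After lane means were removed they were at 0.79, 0.69, 0.81, 0.77 and 0.83. Unc119b was at 0.323 RPKM or less in control embryos and 1.09 to 99.0 RPKM in treated ones, with no overlap. For the Tcstv sum the nearest genes were Tinf2 (0.84), which encodes a telomere protein, Slc30a1 (0.81), a zinc exporter gene, Vps4a (0.81), Mknk2 (0.80) and Kif2a (0.79). None of the genes on the 3 lists was among these 9 genes.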

How the data were processed

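The data are 14 RNA-seq libraries, each of 1 two-cell SCNT embryo. The authors mapped the reads to mm9 with TopHat2, counted them on the exons of each RefSeq transcript and deposited RPKM values, scaled to transcript length and total counts. Their count tables were not used here. Gene symbols came from the RefSeq gene table, which named 25250 of 25650 entries. Reads were recovered as whole multiples of 1 read in 99.99% of entries seen in 2 or more embryos, after a check on simulated data. Reads of 1 amplified embryo are not independent molecules, so floors and intervals cover counting error only.

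For 3 embryos against 3, limma 3.58.1 (R 4.3.3, trend) was run over entries at 1 RPKM or more in each embryo of at least 1 of the groups, on log2(RPKM+1), a scale that understates changes of low genes, with Benjamini-Hochberg adjustment over all of them. The 14 embryos were fitted for TSA and VC together, over entries at 1 RPKM in 3 or more. The test was tried on simulated data. Single genes were compared with two-sided exact permutation tests (scipy 1.17.1). By the study's text, nuclear transfer for the TSA(0-8h)+VC(8-15h) embryos was done in independent experiments. For the other groups this is not given in the sources used here, so their p-values may measure only the spread between these embryos. Sequencing lane, taken from the library identifier, was the batch.

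The members and lists were chosen with earlier results of these data known. All members were described, up to 4 genes per list were named (smallest p-values), and the 5 genes with the highest Spearman correlation were named for each sum. Sequences were read from the NCBIM37 (mm9) genome with GENCODE vM1 models and aligned with MAFFT 7.526. Alternatives covered pseudocount, filter, scaling, lane, replicate block, recovered reads, and leaving out each embryo. Positions and sequences of the Tcstv genes were not analysed here.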

Additional observations from a re-analysis of the deposited data

Results flagged for a closer look

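In 44 groups of 6 or 8 embryos (with or without TSA, with or without VC, for each gene and family sum), the gap of the highest or lowest embryo to its neighbour, as a share of the group's range of log2(RPKM+1), exceeded Dixon's 95% critical value in 6, where chance flags about 1 in 20. Tdpoz3 in VC(8-15h) replicate 2, at 605 RPKM, stood above the other embryos without TSA (share 0.877), and TSA(0-8h) replicate 2, at 8.74 RPKM, above the others without VC (0.655). Tdpoz1 was high in TSA(0-8h) replicate 3 among embryos without VC (0.695). Tdpoz8 was low in control replicate 2 among embryos without VC (0.725), Tdpoz9 was low in TSA(0-8h) replicate 2 among embryos with TSA (0.575), and the Tcstv sum was low in TSA(0-8h)+VC(0-8h) replicate 2 among embryos with VC (0.545).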

How the results depend on the processing

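No member entry was called in limma under the settings reported, and the same was found under most alternatives. In TSA(0-8h)+VC(8-15h) against control, 4 were called with a minimum of 5 RPKM (211 entries in all) and 4 with limma-voom on recovered reads (323 in all), and in TSA(0-8h)+VC(8-15h) against TSA(0-8h), 1 under each of these (241 and 281 in all). The members called there passed the minimum only through the TSA(0-8h)+VC(8-15h) embryos, which favours such calls. Leaving out any 1 embryo left 0 member entries called in each comparison of 3 against 3. In fits with a replicate block, 0 member entries were called in each comparison, of 20, 4 and 196 entries in all. Without the block, 1, 3 and 0 entries were called in all. Same-numbered embryos, which share a lane, had correlations of -0.048 to 0.031 after group means were removed. With 3 embryos per group, these correlations cannot tell whether the numbers pair the embryos.

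Directions changed for differences of at most 1.59 in size. In TSA(0-8h)+VC(8-15h) against TSA(0-8h), the longer Tdpoz8 transcript went to -0.29 with median-ratio scaling, Tdpoz2 to 0.11 with limma-voom, and to between -2.29 and 1.90 without 1 embryo (1.90 without TSA(0-8h)+VC(8-15h) replicate 2, 0.54 and 1.05 without TSA(0-8h) replicates 1 and 2), and Tdpoz9 ranged from -0.57 to 2.75 and from -0.68 to 2.35 at its 2 loci, the lowest without TSA(0-8h) replicate 2. Without 1 embryo, the shorter Tdpoz8 transcript ranged from -0.20 (without control replicate 2) to 2.28 (without control replicate 1) in TSA(0-8h) against control, and it was at 2.56 with the entries of a gene summed. In the fits of 14 embryos, Tcstv1 with TSA went to 0.40 with quantile normalization, Tdpoz3 with TSA to 0.20 with lane as a term, and the longer Tdpoz8 transcript with VC to -0.34 with median-ratio scaling. The cause was not tested. limma-voom was not used for the 14 embryos, since its weights could not be estimated stably.

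Reads cannot part Tdpoz7 from Tdpoz5 or the loci of Tdpoz9, and low values in the shallow libraries rest on few reads.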
